A study of Homo sapiens with 6 samples.

Results

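The proteasome subunit genes were taken as the protein-coding RefSeq genes on chromosomes 1 to 22 and X whose symbol is PSMA, PSMB, PSMC or PSMD followed by a number, and 39 of 19974 protein-coding genes met that rule. Of these, 19 encode the core particle (PSMA and PSMB symbols) and 20 the regulatory particle (PSMC and PSMD symbols, 3 of which, PSMD5, PSMD9 and PSMD10, are assembly chaperones of that particle). Their binding by SON and HMGB2 was read from 4 peak lists of IMR90 cells, which are human embryonic lung fibroblasts. The lists were made by ChIPmentation, in which chromatin held by an antibody is cut and tagged by a transposase on the beads. SON, a protein of nuclear speckles, was profiled in untreated cells, after 3 days and after 6 days of the treatment labelled ICM, which the labels do not expand, and HMGB2, a high mobility group DNA-binding protein, in untreated cells. Each group had 1 list, so no difference between groups has a replicate check and no test between lists was made. The series relates both proteins to CTCF, genome folding and expression, and its title places them in senescent cells. Cells for SON were fixed with formaldehyde and cells for HMGB2 with EGS and formaldehyde, so target and fixation cannot be told apart in any contrast of the 2 proteins. Peak lists do not measure expression, so the cell type could not be checked against marker genes.

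The proteasome degrades proteins tagged with ubiquitin. Its barrel-shaped core consists of outer rings of alpha subunits, which gate the entry, and inner rings of beta subunits, some of which carry the proteolytic sites. The regulatory particle caps the barrel: its PSMC subunits form a ring of ATPases that unfolds substrates, and its PSMD subunits bind ubiquitin, remove it and hold the lid together. When proteasome activity is limiting, the transcription factor NFE2L1 raises the subunit genes together through antioxidant response elements in their promoters, and loss of proteasome capacity is a known feature of ageing fibroblasts.

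A gene was counted as carrying a peak when at least 1 bp of a peak lay in its span or within 5 kb of it. Untreated SON peaks were present at 33 of the 39 proteasome genes (84.6%, 69.5 to 94.1%), against 57.1% of all protein-coding genes. At 3 days 26 genes carried one (66.7%, 49.8 to 80.9%), against 41.0% of all genes, and at 6 days 11 did (28.2%, 15 to 44.9%), against 21.5%. HMGB2 peaks were present at 16 (41.0%, 25.6 to 57.9%), against 23.3%. Intervals are 95% exact binomial (Clopper-Pearson) intervals over genes and cover counting error only. With all peaks kept, the background at 6 days lay inside the interval of the proteasome genes, while in the other 3 lists it lay below it. For the 3-day list this separation depended on the setting, as given below.

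A longer gene offers more room for a peak. The median span was 15314 bp for the proteasome genes and 24170 bp for all protein-coding genes. In windows of equal size for every listed start, within 1 kb of it, 28 of the 34 proteasome genes with a start in the promoter table carried an untreated SON peak, against 42.9% of 15812 genes. In the same windows 22 carried one at 3 days (30.4% of all genes), 8 at 6 days (12.6% of all genes) and 12 an HMGB2 peak (16.2% of all genes). A gene with several listed starts had several such windows. PSMA7, PSMB1, PSMB6, PSMB7 and PSMD4 had no entry in that table.

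The counts depended on how many peaks were kept. When each list was reduced to its 5481 strongest peaks, the 3 SON lists, in order of time, met 19, 16 and 11 proteasome genes, against 26.2%, 27.2% and 21.5% of all genes, and HMGB2 peaks at 16, against 21.7%. With the stronger 50% of each list the SON counts were 26, 16 and 7, against 41.0%, 27.2% and 12.8%, and the HMGB2 count was 9, against 13.7%. The order of the SON lists was the same under both. For a count of 16 of 39 the interval is 25.6 to 57.9%, as given above. It holds the 27.2% at 3 days, so under both limits the 3-day count was not separated from the background. The 21.7% of HMGB2 lay below it. Intervals for the other counts in this paragraph are not given, so no separation is claimed for them. In the gene span alone HMGB2 peaks also lay at 9 genes, against 15.6%. With a limit of 0.05 on the global irreproducible discovery rate (IDR), the authors' measure of disagreement between the 2 replicates merged in each SON list, 27, 14 and 3 genes were counted in the SON lists, against 45.0%, 24.0% and 5.02%.

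The particles were counted separately. Untreated SON peaks were found at 14 of 19 core genes (73.7%, 48.8 to 90.9%) and at 19 of 20 regulatory genes (95%, 75.1 to 99.9%). At 3 days the counts were 11 (33.5 to 79.7%) and 15 (50.9 to 91.3%), and at 6 days 5 (9.15 to 51.2%) and 6 (11.9 to 54.3%). HMGB2 peaks lay at 5 core genes (26.3%, 9.15 to 51.2%) and at 11 regulatory genes (55.0%, 31.5 to 76.9%). The intervals of the particles overlapped in every list, so the higher counts of the regulatory particle were not separated from the core at this number of genes. Among all protein-coding genes 57.1%, 41.0% and 21.5% carried a peak in the SON lists, in order of time, and 23.3% an HMGB2 peak. These backgrounds lay inside the core interval in every list. For the regulatory particle the 6-day background lay inside the interval, and the others lay below it.

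**Figure D1:**
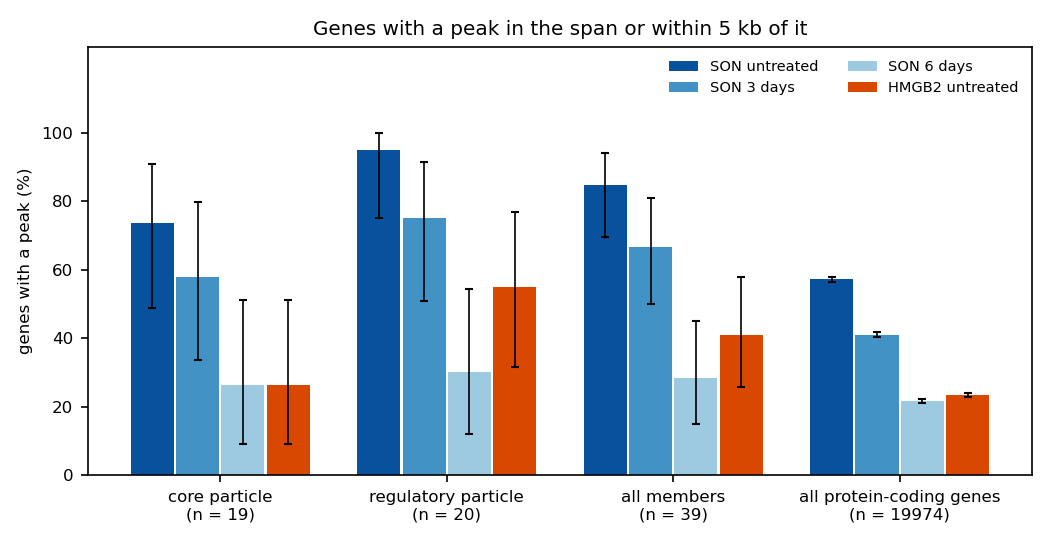
Share of genes with a peak in the span or within 5 kb of it (y axis, percent), for the core particle, the regulatory particle, all 39 proteasome genes and all protein-coding genes, with 1 bar per peak list and 95% exact binomial intervals. The untreated SON bar stands at 84.6% for the proteasome genes and at 57.1% for all protein-coding genes, while the 6-day bars stand at 28.2% and 21.5%.

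By combination of lists, 9 genes carried a peak in all 4: PSMA2, PSMA3, PSMB1, PSMB3, PSMC3, PSMC4, PSMD1, PSMD3 and PSMD9. PSMA1 and PSMD5 carried one in the 3 SON lists without HMGB2. In the untreated and 3-day SON lists only were 11 genes, PSMA5, PSMA6, PSMB7, PSMB9, PSMB10, PSMC5, PSMC6, PSMD2, PSMD7, PSMD10 and PSMD11, and PSMD8, PSMD12 and PSMD14 had HMGB2 in addition. The only 3-day peaks of PSMC6 and PSMD11 lay over the starts of their neighbours STYX and CDK5R1. Within 1 kb of their own starts these genes carried an untreated SON peak alone. PSMB6, PSMD4, PSMD6 and PSMD13 carried untreated SON and HMGB2 peaks and no later SON peak. PSMB2, PSMB4, PSMB8 and PSMC1 carried an untreated SON peak alone, and PSMA4 a 3-day peak alone. Within 1 kb of a listed start, 6 genes carried a peak in all 4 lists: PSMA2, PSMA3, PSMB3, PSMC4, PSMD3 and PSMD9. Shares of all protein-coding genes in these combinations are not given here, so no combination is set against a background. All 16 proteasome genes with an HMGB2 peak also carried an untreated SON peak, as did 93.0% of all protein-coding genes with an HMGB2 peak.

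No list held a peak at 5 of the 39 genes. These were PSMA8, the testis-specific alpha subunit, PSMB11, the thymus-specific catalytic subunit, and 3 genes of the constitutive particle. The latter were PSMA7, an alpha subunit, PSMB5, the chymotrypsin-like subunit that bortezomib binds, and PSMC2, an ATPase. Absence from a list means that no peak passed the authors' threshold, and the depth of the libraries is unknown. The share of all protein-coding genes without a peak in any list is not given here.

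The strength of a peak is given below as the authors' −log10 p, with its rank within its own list. It depends on library depth and is not compared in size between lists. The 42 untreated SON peaks at proteasome genes had a median −log10 p of 15.9, from 5.54 to 75.0, against 10.4 for the 16104 untreated peaks at all protein-coding genes. At genes with a listed start, 73.7% of the former and 45.3% of the latter had their midpoint within 1 kb of it. The peaks compared thus differed in position, and no background matched for position is given here. The 31 peaks at 3 days had a median of 10.2 (9.50 at all genes), the 11 at 6 days one of 8.79 (8.67), and the 20 HMGB2 peaks one of 10.2 (9.63). With genes that lacked a peak set to 0, the median over genes of the strongest untreated peak was 15.3 for the 39 proteasome genes and 7.31 for all protein-coding genes.

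**Figure D2:**
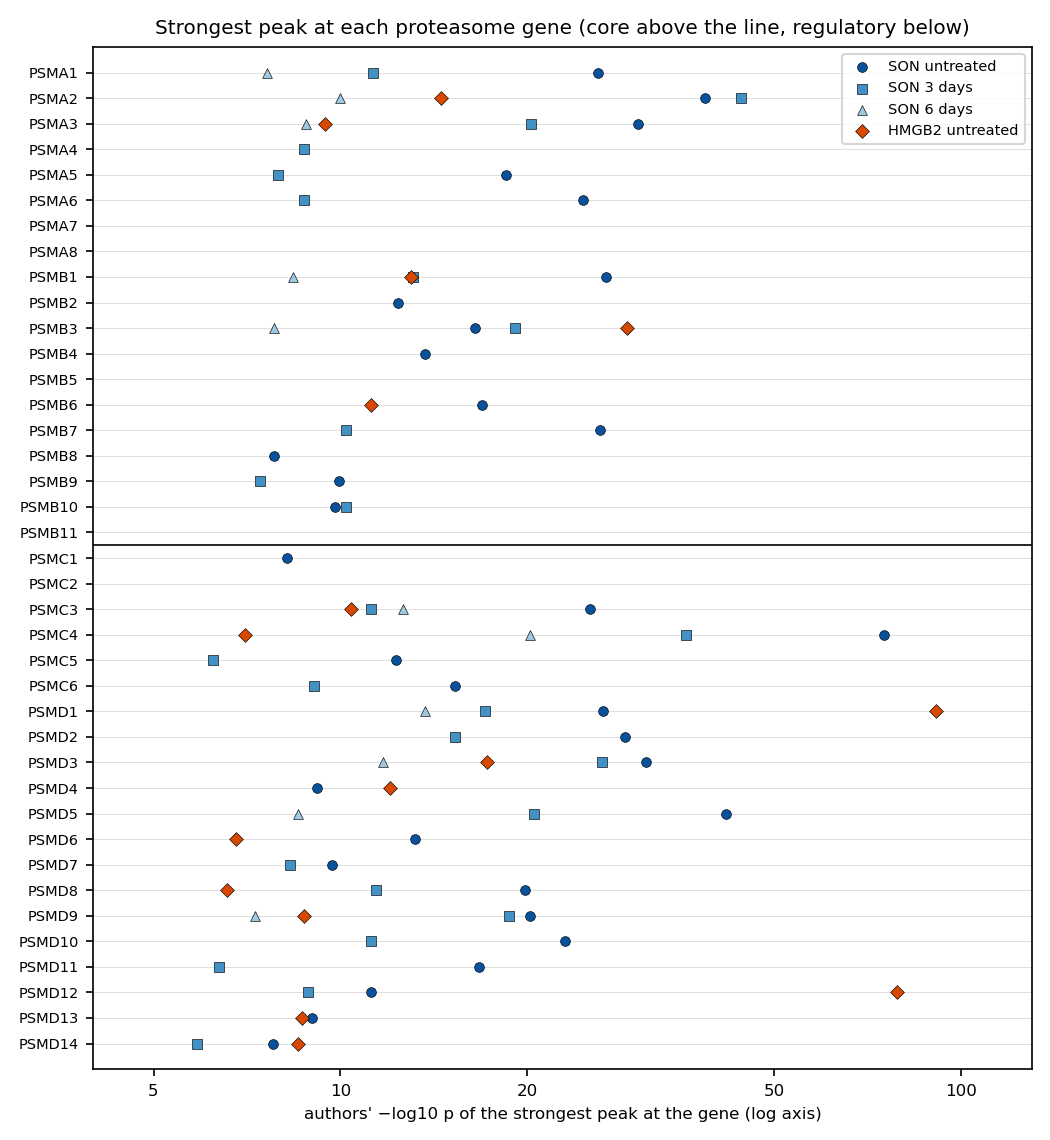
Authors' −log10 p of the strongest peak at each of the 39 proteasome genes (x axis, log scale), with a marker per list; a missing marker means no peak. The highest SON value is 75.0 at PSMC4 in untreated cells and the highest HMGB2 value is 90.9 at PSMD1, while PSMA7, PSMA8, PSMB5, PSMB11 and PSMC2 have no marker.

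The peaks lay at gene starts. Of the 38 untreated SON peaks at genes with a listed start, 28 (73.7%) had their midpoint within 1 kb of it, against 45.3% of untreated peaks at all genes with a listed start. The shares were 79.3% at 3 days (57.6% at all genes), 80.0% at 6 days (48.1%) and 75.0% for HMGB2 (56.3%). Within that 1 kb, 23 of the 28 untreated midpoints were upstream of the start, with a median distance of -87 bp, where a negative distance is upstream. At 6 days 8 of 8 were upstream, at distances from -173 to -53 bp, and 11 of 12 HMGB2 midpoints were upstream, with a median distance of -123 bp. Upstream shares at all genes are not given here, so this position is not shown to be particular to the proteasome genes.

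**Figure D3:**
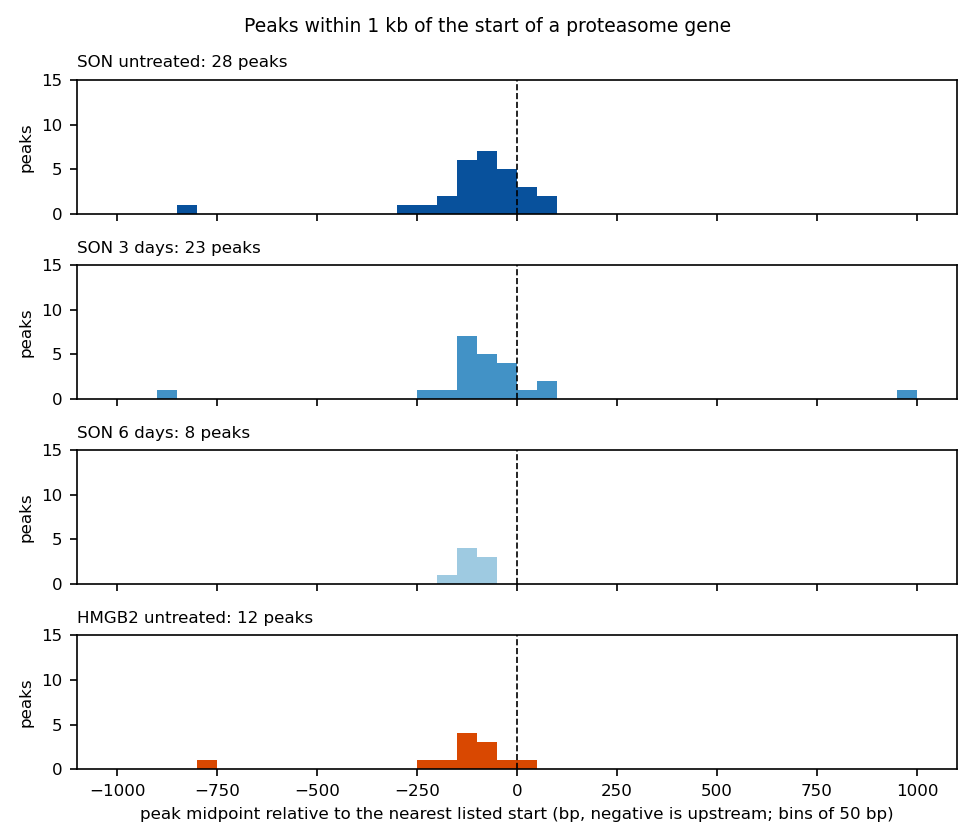
Number of peaks (y axis) by distance of the peak midpoint from the nearest listed start of a proteasome gene (x axis, bp, negative is upstream), in bins of 50 bp, for the 4 lists. The 28 untreated SON, 23 SON at 3 days, 8 SON at 6 days and 12 HMGB2 midpoints gather just upstream of the start.

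The following 6 promoters were chosen by the rule set for naming genes. They are of the 3 proteasome genes with the strongest untreated SON peak among those whose 250 bases before the start hold the antioxidant response element core TGACNNNGC on either strand, and of the 3 strongest among those that do not. The choice used the untreated values, so presence in that list was fixed by it. The sequences are RefSeq sequences of GRCh38.p14, 5′ to 3′ on the gene's strand and ending at the last base before the start. Capitals mark matches to TGACNNNGC and to the CCAAT box, searched as ATTGG, each on both strands. In PSMD9 the matches are 2 response element cores, in PSMD5 there is 1, and in PSMD3 the first capitals are a CCAAT box and the last a response element core. In PSMA2 and PSMA3 the capitals are CCAAT boxes, 1 and 2 of them, and PSMC4 holds neither motif.
PSMD5, chr9:120842923-120843172, minus strand: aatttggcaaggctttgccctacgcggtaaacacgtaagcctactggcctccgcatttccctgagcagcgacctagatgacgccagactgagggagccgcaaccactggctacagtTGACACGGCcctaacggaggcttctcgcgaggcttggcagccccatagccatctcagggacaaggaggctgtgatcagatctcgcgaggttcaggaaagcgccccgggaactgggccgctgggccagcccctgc
PSMD3, chr17:39980557-39980806, plus strand: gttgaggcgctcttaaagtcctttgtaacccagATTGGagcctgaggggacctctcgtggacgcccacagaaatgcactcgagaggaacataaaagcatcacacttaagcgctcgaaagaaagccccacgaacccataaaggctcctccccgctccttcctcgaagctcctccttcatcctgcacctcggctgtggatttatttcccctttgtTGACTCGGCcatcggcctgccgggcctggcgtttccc
PSMD9, chr12:121888540-121888789, plus strand: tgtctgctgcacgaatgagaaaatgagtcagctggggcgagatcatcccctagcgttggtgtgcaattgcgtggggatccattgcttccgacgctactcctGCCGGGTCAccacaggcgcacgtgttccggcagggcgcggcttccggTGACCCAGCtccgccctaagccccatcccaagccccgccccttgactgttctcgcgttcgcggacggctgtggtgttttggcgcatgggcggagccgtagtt
PSMC4, chr19:39970915-39971164, plus strand: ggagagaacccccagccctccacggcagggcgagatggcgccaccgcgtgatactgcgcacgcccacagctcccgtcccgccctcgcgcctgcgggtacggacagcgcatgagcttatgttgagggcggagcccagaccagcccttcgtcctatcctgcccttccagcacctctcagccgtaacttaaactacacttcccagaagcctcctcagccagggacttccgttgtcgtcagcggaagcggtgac
PSMA2, chr7:42932175-42932424, minus strand: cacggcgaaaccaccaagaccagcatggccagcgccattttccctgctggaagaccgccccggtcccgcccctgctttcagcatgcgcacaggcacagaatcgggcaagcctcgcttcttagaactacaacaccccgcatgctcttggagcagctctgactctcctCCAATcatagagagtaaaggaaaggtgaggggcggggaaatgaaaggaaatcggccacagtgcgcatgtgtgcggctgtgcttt
PSMA3, chr14:58244593-58244842, plus strand: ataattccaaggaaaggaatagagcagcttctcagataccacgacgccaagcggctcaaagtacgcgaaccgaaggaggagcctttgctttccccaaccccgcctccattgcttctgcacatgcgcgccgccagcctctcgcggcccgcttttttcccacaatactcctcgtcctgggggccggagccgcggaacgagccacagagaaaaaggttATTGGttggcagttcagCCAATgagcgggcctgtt
All 250 bases of each lay inside the untreated and 3-day SON peaks. At 6 days the peak covered all 250 bases in 5 of the 6 and 212 bases in PSMA3. HMGB2 peaks covered 221 bases in PSMD3, 190 in PSMD9, 183 in PSMC4, 247 in PSMA2 and 176 in PSMA3, and none in PSMD5. The response element core lay 37 to 29 bases before the start in PSMD3 and 134 to 126 bases before it in PSMD5.

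The PSMC4 promoter, of an ATPase of the regulatory ring, carried the strongest SON peak of the set in the untreated and 6-day lists. Its −log10 p was 75.0 in untreated cells (rank 189 of 22216), 36.0 at 3 days (rank 537 of 11028) and 20.2 at 6 days (rank 233 of 5481). Its HMGB2 peak was among the weaker ones of that list, with 7.03 (rank 4872 of 5992). At 6 days its global IDR was 0.00366. The start of a long noncoding RNA, LOC124904720, lies 194 bp away on the other strand, so the peak cannot be assigned to 1 of the pair.

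PSMD5 encodes a chaperone that assembles the regulatory base, and its peak also overlaps CUTALP. Its start carried SON peaks of 41.8 in untreated cells (rank 711), 20.5 at 3 days (rank 1265) and 8.55 at 6 days (rank 2714), and no HMGB2 peak. Among the other chaperones, PSMD9 carried 20.2, 18.7 and 7.29 with an HMGB2 peak of 8.75, and its start lies 179 bp from that of HPD on the other strand. PSMD10, the oncoprotein gankyrin, carried 23 and 11.2 and no 6-day or HMGB2 peak. All 3 chaperones were thus in the untreated and 3-day lists. The interval of each count (29.2 to 100%) holds the share of all genes, 57.1% and 41.0%.

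Among alpha subunits, PSMA2 had 38.6 in untreated cells (rank 870), 44.1 at 3 days (rank 364), 10.0 at 6 days (rank 1704) and an HMGB2 value of 14.5 (rank 986). It shares its promoter with MRPL32, a mitochondrial ribosomal protein gene whose start is 202 bp away on the other strand. PSMA3 had 30.1, 20.3 and 8.79 in the SON lists and 9.43 for HMGB2. PSMA1 had 26.0, 11.3 and 7.61 at its listed start and no HMGB2 peak. PSMA6 had 24.6 and 8.73 and PSMA5 18.5 and 7.92 in the first 2 SON lists, with no 6-day peak. PSMA4 differed from these, since its start carried a SON peak at 3 days only, with 8.73 and a global IDR of 0.100. Of the 7 constitutive alpha genes 5 carried an untreated SON peak (29.0 to 96.3%, against 57.1% of all genes), 6 a 3-day peak (42.1 to 99.6%, against 41.0%) and 3 a 6-day peak (9.90 to 81.6%, against 21.5%), so at this number of genes the untreated and 6-day counts were not separated from the background.

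Among the beta subunits of the constitutive core, the 4 without a catalytic site all carried an untreated SON peak, of 26.8 at PSMB1, 12.4 at PSMB2, 16.5 at PSMB3 and 13.7 at PSMB4. The interval of that count (39.8 to 100%) holds the 57.1% of all genes. PSMB1 and PSMB3 also carried one at 3 days, with 13.1 and 19.1, and at 6 days, with 8.40 and 7.81. The PSMB1 peaks lay outside the gene, over the start of TBP, the TATA-binding protein gene. PSMB3 had the third strongest HMGB2 peak of the set, 29.0 (rank 136 of 5992). Of the catalytic subunits, PSMB7, the trypsin-like one, carried 26.2 and 10.2 in the untreated and 3-day lists, and PSMB6, the caspase-like one, 16.9 in untreated cells with an HMGB2 value of 11.2.

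The 3 immunoproteasome genes, which interferon induces, carried untreated SON peaks near or below the list median of 9.90. None carried a 6-day or HMGB2 peak (0 to 70.8%), an interval that holds the 21.5% and 23.3% of all genes. PSMB9 had 9.95 in untreated cells and 7.42 at 3 days, over a promoter shared with TAP1, the peptide transporter gene whose start lies 488 bp away on the other strand. PSMB10 had 9.79 and 10.2, inside the gene. PSMB8 had 7.81 in untreated cells only, over the start of its neighbour TAP2 and not its own.

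In the regulatory particle, 5 of 6 ATPase genes carried an untreated SON peak (35.9 to 99.6%), and so did all 8 lid genes (63.1 to 100%). The 57.1% of all genes lay inside the ATPase interval and below the lid interval. The ATPase genes other than PSMC3 and PSMC4 had 12.3 at PSMC5, 8.19 at PSMC1 and, at the start of PSMC6, 8.38, where the strongest peak in the window, 15.3, lay over the start of its neighbour STYX. PSMD3 stood highest among the lid genes in the SON lists, with 31.1 (rank 1397), 26.4 (rank 829) and 11.7 (rank 1056). Its HMGB2 peak of 17.2 (rank 599) was below that of PSMD12, with 78.8. Among the other lid genes, the strongest untreated peak was 19.8 at PSMD8, 16.7 at PSMD11, 13.2 at PSMD6, 11.2 at PSMD12, 9.71 at PSMD7 and 8.99 at PSMD13. PSMD14, the deubiquitinase of the lid, stood lowest in the untreated SON list, with 7.79. It had 5.88 at 3 days and 8.54 for HMGB2, and both of its SON peaks were at the largest global IDR of their lists, 0.431 and 0.447. PSMD2, a scaffold of the base, had 28.7 and 15.3 and no 6-day or HMGB2 peak. PSMD4, the ubiquitin receptor, had 9.17 in untreated cells alone, with 2 HMGB2 peaks of 12 and 10.8. Of the 8 lid genes 1, PSMD3, was in the 6-day list (12.5%, 0.316 to 52.7%), an interval that holds the 21.5% of all genes. HMGB2 peaks lay at 6 of the 8 (75.0%, 34.9 to 96.8%), against 23.3% of all genes.

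PSMD1 carried separate peaks that differed between the lists. At its start lay the strongest HMGB2 peak of the set, with 90.9 (rank 16 of 5992) and a fold enrichment of 7.88 over the caller's background, as deposited. The SON peak there had 20.4 in untreated cells and 13.3 at 3 days, and none was listed at 6 days. A SON site 105289 bp downstream of the start, on chromosome 2 from 231161838 to 231162474 inside the gene span, had 26.5, 17.1 and 13.7 in the 3 SON lists and no HMGB2 peak. The 6-day SON peak of PSMD1 was therefore not at its promoter.

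PSMC3, an ATPase, was alike in this respect. Its start carried 20.6 and 7.11 in the untreated and 3-day lists and nothing at 6 days. A site 10107 bp downstream of the start, over the neighbouring zinc transporter gene SLC39A13, carried 25.2, 11.2 and 12.6 in the SON lists and 10.4 for HMGB2. Peaks in the windows of PSMA1, PSMA2, PSMB8, PSMC6, PSMD8 and PSMD11 included some at the starts of neighbours (COPB1, C7orf25, TAP2, STYX, GGN and CDK5R1).

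HMGB2 was strongest at 2 genes of the regulatory particle. After PSMD1 came PSMD12, a lid subunit, with 78.8 (rank 22 of 5992) and a fold enrichment of 10.7, across its start. SON at that place was weaker within its lists, with 11.2 in untreated cells (rank 9396 of 22216) and 8.86 at 3 days (rank 5743 of 11028), and no 6-day peak. Of the 20 HMGB2 peaks at proteasome genes, 16 overlapped an untreated SON peak, against 63.6% of HMGB2 peaks at all protein-coding genes. Seen from SON, 16 of 42 untreated peaks met an HMGB2 peak (38.1%, 23.6 to 54.4%), against 19.1% at all protein-coding genes. The share was 5 of 17 in the core particle and 11 of 25 in the regulatory particle.

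The treated lists were followed by peak position. Of the 42 untreated SON peaks at proteasome genes, 30 overlapped a 3-day peak (71.4%, 55.4 to 84.3%), against 48.8% of untreated peaks at all protein-coding genes. At 6 days 11 did (26.2%, 13.9 to 42.0%), against 22.6%. The 3-day and 6-day comparisons share the untreated list. Of the 31 peaks at 3 days, 30 overlapped an untreated peak, the exception being at PSMA4, and all 11 peaks at 6 days did. These shares were near those of the peaks at all protein-coding genes, 92.9% and 90.8%. When each list was reduced to its 5481 strongest peaks, the 3-day share was 76.2% at proteasome genes and 71.6% at all protein-coding genes, and the 6-day share 52.4% and 54.3%.

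As at all protein-coding genes, the peaks found later were those with higher values in untreated cells. The 11 peaks found at both times had a median untreated −log10 p of 26.8, the 19 found at 3 days only one of 12.3 and the 12 found at neither one of 9.08. The medians over untreated peaks at all protein-coding genes were 23.6, 13.1 and 7.96 in the same states. HMGB2 peaks met 8 of the 11, 5 of the 19 and 3 of the 12, against 34.0%, 23.5% and 10.6% at all protein-coding genes. All 11 peaks of the 6-day list were among the 21 strongest of the 42 untreated peaks, and none of the 21 weakest was found at 6 days. The 5 strongest untreated peaks were all found at 6 days. The strongest one that was not found was at PSMD2, with 28.7, and the weakest one found was at PSMB3, with 16.5, so the groups overlapped. Few of the 6-day peaks met a strict reproducibility limit: 3 of the 11, at PSMC3, PSMC4 and PSMD1, had a global IDR of at most 0.05, against 15% of the peaks in the whole 6-day list, and those at PSMA1, PSMB3 and PSMD9 were at its largest value, 0.630.

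**Figure D4:**
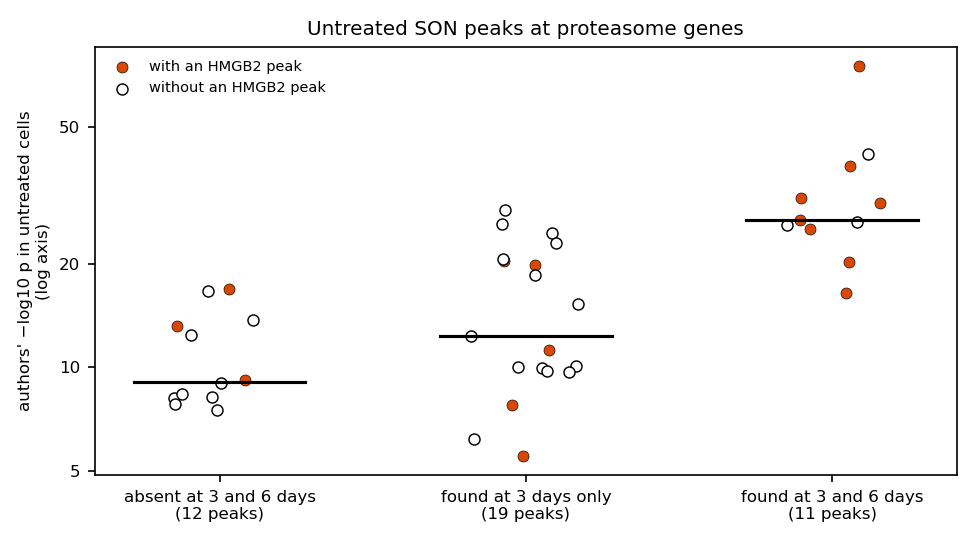
Authors' −log10 p in untreated cells (y axis, log scale) of the 42 untreated SON peaks at proteasome genes, by presence in the later lists, with a line at the median and filled points for peaks that meet an HMGB2 peak. The medians are 9.08, 12.3 and 26.8 from left to right, and HMGB2 peaks meet 3 of 12, 5 of 19 and 8 of 11 peaks in the same order.

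Motifs were searched on both strands of the 250 bases before each start, and a gene was counted when any of its listed starts held a match. The response element core TGACNNNGC was found at 8 of the 34 proteasome genes with a listed start (23.5%) and at 14.7% of 15812 protein-coding genes. The 8 genes were PSMA4, PSMB3, PSMB9, PSMC5, PSMD3, PSMD5, PSMD9 and PSMD12. The ETS motif CCGGAA was found at 14 proteasome genes (41.2%), 12 of them in the regulatory particle, and at 23% of all genes. The CCAAT box ATTGG was found at 17 of the 34 (40.2% of all genes), the GC box GGGCGG at 20 (58.8%, against 62.1%) and the motif of nuclear respiratory factor NRF1 at 4 (11.8%, against 8.73%). The YY1 motif was found at none of the 34 and at 0.354% of all genes, which says only that its letters are not in these windows. Median GC content of these bases was 60.8% at the proteasome genes and 62.4% at all genes. A match is a match of letters and does not show that a factor binds.

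The motif-bearing genes were set against the peaks within 1 kb of the start. A 3-day SON peak was present at 8 of the 8 genes with a response element core and at 14 of the 26 without, against 34.2% and 29.7% of all protein-coding genes with and without it. At 6 days the counts were 4 of 8 and 4 of 26, against 14.5% and 12.2%. In untreated cells they were 7 of 8 and 21 of 26, against 48.4% and 42.0%, and for HMGB2 4 of 8 and 8 of 26, against 18.1% and 15.9%. The ETS motif was held by 14 genes and lacked by 20. Genes with and without it carried a SON peak in 11 and 17 cases in untreated cells, 7 and 15 at 3 days and 1 and 7 at 6 days, and an HMGB2 peak in 5 and 7. Over all protein-coding genes the shares with and without the ETS motif were 65.0% and 36.4%, 45.7% and 25.8%, 19% and 10.6%, and 20.8% and 14.9% in the same order. For the CCAAT box, held by 17 genes and lacked by 17, the counts were 13 and 15, 13 and 9, 4 and 4, and 7 and 5. For the GC box, held by 20 and lacked by 14, they were 19 and 9, 16 and 6, 5 and 3, and 8 and 4. The NRF1 motif, held by 4 and lacked by 30, gave 3 and 25, 2 and 20, 0 and 8, and 1 and 11. Over all protein-coding genes the share was higher with than without each of these 3 motifs in all 4 lists. At 3 days it was 36.9% and 25.9% for the CCAAT box, 36.9% and 19.6% for the GC box and 77.0% and 25.9% for the NRF1 motif. These counts describe 34 genes, and no test of them was made.

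The promoters of PSMD2 and PSMD12 were chosen after their values were seen, PSMD2 for the strongest untreated SON peak missing at 6 days and PSMD12 for its HMGB2 peak. Capitals here mark the ETS motif CCGGAA, which reads TTCCGG on the strand shown in both.
PSMD2, chr3:184298991-184299240, plus strand: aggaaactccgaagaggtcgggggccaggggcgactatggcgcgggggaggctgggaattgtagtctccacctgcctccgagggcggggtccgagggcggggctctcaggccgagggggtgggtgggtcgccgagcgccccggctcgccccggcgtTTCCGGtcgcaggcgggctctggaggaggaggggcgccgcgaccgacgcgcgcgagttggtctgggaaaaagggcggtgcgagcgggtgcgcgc
PSMD12, chr17:67366578-67366827, minus strand: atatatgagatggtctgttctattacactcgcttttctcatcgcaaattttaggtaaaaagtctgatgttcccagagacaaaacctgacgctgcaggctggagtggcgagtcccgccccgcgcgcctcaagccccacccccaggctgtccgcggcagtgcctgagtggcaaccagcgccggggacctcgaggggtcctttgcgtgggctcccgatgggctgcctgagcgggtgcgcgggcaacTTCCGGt
The ETS match lay 94 to 89 bases before the start in PSMD2 and 7 to 2 bases before it in PSMD12. The untreated and 3-day SON peaks covered all 250 bases of both, and the HMGB2 peak covered all 250 of PSMD12.

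Other genes of the pathway were read from 5 lists of 37 genes. Untreated SON peaks were present at 33 of them, 3-day peaks at 24, 6-day peaks at 14 and HMGB2 peaks at 15, where the backgrounds are those given above. All 9 genes of the NFE2L1 pathway carried an untreated SON peak, 7 a 3-day peak, 5 a 6-day peak and 6 an HMGB2 peak. Among them VCP, the ATPase that extracts NFE2L1 from the endoplasmic reticulum, had 61.6, 40.4 and 17.3 in the SON lists and 9.82 for HMGB2, and NFE2L1 itself had 32.6 and 13.3, no 6-day peak, and an HMGB2 peak of 19.7. Of the 5 core assembly chaperones 4 carried an untreated peak, 1 a 3-day peak and none a 6-day peak, and 2 carried an HMGB2 peak. Of the 5 activators and inhibitor, 4 carried an untreated peak, 3 a 3-day peak, 2 a 6-day peak and 3 an HMGB2 peak. The activator genes PSME1 and PSME2, which interferon induces, are close neighbours and had the same values of 11.2 at 3 days, 7.87 at 6 days and 11.4 for HMGB2.

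Among 9 partners of the regulatory particle outside the symbol rule, 9 carried an untreated SON peak, 6 a 3-day peak, 2 a 6-day peak and 2 an HMGB2 peak. Those at 6 days were at TXNL1, a thioredoxin-like protein of the particle, with 92.9, 81.1 and 14.6, and at AKIRIN2, which carries proteasomes into the nucleus, with 52.3, 34.9 and 9.59. Of the 9 ubiquitin and shuttle genes, 7 carried an untreated peak, 7 a 3-day peak, 5 a 6-day peak and 2 an HMGB2 peak.

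The counts of the proteasome genes were similar in size to those of other housekeeping complexes, given here side by side with no test. Untreated SON peaks lay at 94.0% of 84 genes with cytosolic ribosomal protein symbols, 84.4% of 77 mitochondrial ribosomal protein genes and 11 of 12 RNA polymerase II subunit genes. At 6 days the values were 31.0%, 31.2% and 5 of 12, and for HMGB2 45.2%, 35.1% and 5 of 12.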

How the data were processed

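Peak lists of 4 of the 6 samples were used, grouped by title and treatment label. The input and the DSG sample of HMGB2 were not analysed here. The submitters' processing notes name hg38, Bowtie2, MACS2 and deepTools. Roles, read filters and depth are not given in the sources used here. Each SON list has the layout of the IDR tool on 2 merged replicates. For every SON line the authors deposited a −log10 p, equal to the smaller replicate value, the −log10 of the global IDR and a score that is its scaled form. How the replicates were made is not stated, and in untreated cells 29 of the 42 peaks at proteasome genes had the same −log10 p in both. The largest global IDR was 0.431, 0.447 and 0.630 in the 3 lists, so no strict limit was applied. The deposited HMGB2 list holds, for each peak, a ratio (fold enrichment), a −log10 p and a −log10 q value, and the peak names state a q cutoff of 0.03; whether replicates were pooled is not stated.

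Peaks on chromosomes 1 to 22 and X numbered 22216, 11028, 5481 and 5992. Gene spans, without exons, and start sites came from RefSeq tables of GRCh38.p14, so exon or intron is not given. Coordinates are 1-based. Peaks met a gene window, or each other, by at least 1 bp. The member genes, lists, motifs and alternatives were chosen with earlier results of these data known. Genes named in full were those in all 4 lists or in the 3 SON lists, the 5 strongest in the untreated SON and HMGB2 lists, and those in none; others were named to account for every member. Window counting and overlap were tested on simulated peaks. Software was scipy 1.17.1, pandas 2.3.3 and numpy 2.4.6 under Python 3.11.15, with plots drawn by matplotlib 3.10.9.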

Additional observations from a re-analysis of the deposited data

How the results depend on the processing

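The window within 1 kb of a listed start was chosen after seeing the data. With 1 list per group no replicate could be left out. No paired analysis was possible because each group has 1 list. Genes with an untreated SON peak fell in number to 19 when each list kept its 5481 strongest peaks. The 3-day count was 16 under that limit, 16 with the stronger 50% of the list and 14 under the IDR limit of 0.05. The 6-day count was 7 with the stronger 50% and 3 under the IDR limit. HMGB2 peaks lay at 9 genes with the gene span alone and at 9 with the stronger 50%. With the stronger 50%, the share of untreated peaks found at 3 days was 53.3%, against 47.2% at all protein-coding genes. It was 46.7% with the IDR limit, against 35.1%, and 71.0% within 1 kb of either gene end, against 64.6%. The share found at 6 days was 52.4% with equal numbers of strongest peaks, against 54.3%. With the IDR limit it was 6.67%, against 6.74%. In the remaining alternatives run, counts stayed within 1.5 times and shares within the interval of the reported value. The order of the 3 SON lists held in every alternative run. Median strengths taken from either replicate stayed within 1.5 times of those reported. The unknown depth limits every absence from a list.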

Other observations

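Pseudogenes of the subunit genes were read as well. RefSeq lists 44 pseudogenes named after proteasome subunits on these chromosomes, and none of the 44 had a peak of any of the 4 lists inside its span. Within 5 kb, 2 of them (PSMC1P4 and PSMA2P2) had an untreated SON peak and none had a 3-day, 6-day or HMGB2 peak. Shares over other pseudogenes are not given here and the read filters are unknown, so no contrast with the subunit genes is drawn.

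Promoters shared with a gene on the other strand were about as frequent among the proteasome genes as among all protein-coding genes. Of the 34 with a listed start, 9 had an opposite-strand start within 1 kb (26.5%, against 26.0% of 15812 genes), and in 6 the partner encodes a protein (17.6%, against 13.6%). These partners were MRPL32 at PSMA2, TAP1 at PSMB9, FTSJ3 at PSMC5, HPD at PSMD9, ATG4A at PSMD10 and SIRT3 at PSMD13. At PSMD13 the starts lie 45 bp apart, and the gene carried an untreated SON peak of 8.99 over both starts, while its HMGB2 peak of 8.68 had its midpoint at -773 bp from the PSMD13 start, over SIRT3, the mitochondrial deacetylase gene.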
